A study of Homo sapiens with 47 samples.

Results

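The outer ring of the nuclear pore is built from copies of the Y complex, and 9 genes that encode its subunits were followed here: NUP160, NUP37 and AHCTF1, NUP85, SEH1L and NUP43, and SEC13, NUP107 and NUP133. The genes were chosen by name. Each symbol stood in a single row of the deposited expression table, so that all 9 members were found among its 57507 genes and none was lost. All 9 passed the filter on low values (a mean FPKM of at least 1) in every comparison.

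RNA was sequenced from HAP1, a near-haploid line that derives from a chronic myeloid leukemia, and from HCT116, a human colorectal carcinoma line, to ask how cells adapt to weakened alleles of NUP58, a gene of the central channel of the pore. HAP1 gave 32 libraries from 8 lines with 4 libraries per line: the wild type (WT), a control line that had received the vector without guide RNAs (EV), and NUP58 mutant clones named C1–C6. The mutants were grown from single cells after Cas9 cutting at NUP58, so that each line is a single clone and its 4 libraries share every change that the clone carries. HCT116 gave 15 libraries, 4 labelled as a NUP58 mutant clone and 11 as unedited (2 WT, 3 EV1, 4 EV2 and 2 whose title and genotype conflict, both numbered replicate 4). The labels number the libraries as replicates, and the authors call those of HAP1 independent experimental replicates. Separate cultures are not named, so p-values measure the spread between these libraries.

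Levels are FPKM, fragments scaled to transcript length and to the mapped fragments of a library, as the authors deposited them, and can be compared between genes. The FPKM of a HAP1 library added up to between 604053 and 654081, that of an HCT116 library to between 619798 and 721992. How many fragments lie behind a value is unknown from FPKM, but the relative depth of the libraries ran only from 0.755 to 1.15. In HCT116, 6 of 8 markers of colon epithelium reached a mean of 1 FPKM, with a summed level of 1392 to 2663 per library. In HAP1, 4 of the 8 reached it (3 in the unedited libraries), with a sum of 22.0 to 66.0. Of 9 blood cell markers only TAL1 and KIT did in HAP1, while PTPRC, SPI1, GATA1 and HBG1 were at 0 in all 32 libraries. In HCT116, 2 of these 9 reached it, LYL1 and HBG2. NUP58 itself was at 34.3 to 50.4 in HAP1 WT and at 7.98 to 28.0 in the 24 clone libraries. In HCT116, the library labelled clone replicate 3 stood at 44.7 and the library labelled EV2 replicate 3 at 23.9, against 23.3 to 25.3 in the other clone libraries. These 2 libraries go against their labels, so comparisons and correlations within HCT116, or with it, are also given without all libraries numbered 3.

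In the Y complex, NUP160, NUP37 and the chromatin-binding subunit ELYS (encoded by AHCTF1) lie on an arm, NUP85, SEH1 (SEH1L) and NUP43 on the other arm, and NUP96, SEC13, NUP107 and NUP133 along the stem. NUP96 is cut from a precursor that NUP98 encodes, so it has no gene of its own in the table. The complex is a stable scaffold that is needed to assemble pores after mitosis and in interphase, and part of it sits at kinetochores during mitosis. SEC13 also belongs to the COPII coat of vesicles that leave the endoplasmic reticulum, and SEC13 and SEH1 are subunits of GATOR2, which regulates mTORC1 in response to amino acids.

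The members lie on 7 chromosomes of GRCh38 (GENCODE release 44). NUP37 (chromosome 12, 102073103 to 102120120, minus strand, 10 exons) and NUP107 (chromosome 12, 68686951 to 68745809, plus strand, 28 exons) share a chromosome, as do NUP133 and AHCTF1 on chromosome 1. SEC13 spans 10293131 to 10321112 of chromosome 3 (minus strand, 9 exons). The start of NUP37 lies 63 bases from that of PARPBP on the opposite strand, and the start of NUP43 lies 221 bases from that of PCMT1. Such a partner within 1000 bases was present for 2 of the 9 members and for 13.4% of 20046 protein-coding genes. SEC13 and AHCTF1 each have a pseudogene named after them (SEC13P1 and AHCTF1P1), whose reads could be shared.

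RefSeq promoters (GRCh38.p14, 250 bases before to 50 after the start) were found for 7 members, all but NUP43 and AHCTF1. Because the members varied together between libraries, as described further on, their promoters were searched on both strands for 8 short motifs. The ETS motif CCGGAAG was in 4 of 7 promoters (SEC13, NUP107, NUP37 and SEH1L) and in 10.3% of all 35116. In SEC13, NUP37 and NUP107 it began 13, 14 and 10 bases before the start. The 30 bases before the start are shown for these 3 members and for NUP133, the only member with the CRE motif TGACGTCA (1.85% of all promoters), 5′ to 3′ with the motif in capitals (CTTCCGG is the ETS motif on the other strand).
SEC13 (chr3:10321113-10321142, minus strand): gcccgtcgggcccggcgCCGGAAGtgagct
NUP37 (chr12:102120115-102120144, minus strand): gcgctcgccctccgacCCGGAAGcagagcc
NUP107 (chr12:68686948-68686977, plus strand): tctgttttagggacagactgCTTCCGGgtc
NUP133 (chr1:229508342-229508371, minus strand): attgcgttTGACGTCAtcatcgcgcgccat
The GC box GGGCGG was in 4 of 7 (45.0% of all), CCAAT in 3 (34.6%), an E2F motif, searched as TTGGCGC and also in the form TTCGCGC and in the form TTCCCGC, in 3 (11.03%) and GCATGCGC, the core of the NRF1 motif, in NUP107 alone (3.05%). TATAAA (11.5% of all) and AAGATGGC (2.89% of all) were in none. The 7 windows held more G and C than all promoters (median 63.7% against 58.7%) and more CG pairs (27 against 14). The shares of all promoters were not matched for this. These matches describe the letters of the windows, and binding was not measured.

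In bulk RNA, fewer cells that express a gene and less RNA per cell cannot be told apart, which holds for every level that follows. All members were expressed in both lines, over a 4.66-fold range of mean FPKM in HAP1 WT. SEC13 was highest with 107.4 ± 2.95 (SD, n = 4, as for all WT values here), above every other member in each of the 4 WT libraries. NUP37 (71.3 ± 4.99), NUP85 (67.1 ± 11.4) and NUP107 (64.4 ± 3.30) followed, and neighbours in this order overlapped. SEH1L (40.0 ± 8.20), NUP160 (36.4 ± 4.49), NUP133 (33.1 ± 2.46), AHCTF1 (29.3 ± 3.22) and NUP43 (23.1 ± 3.58) formed a lower group, again with overlapping neighbours, and SEH1L lay below NUP107 in all 4 libraries without overlap. SEC13 lay above 92.6% of the 13180 genes expressed in HAP1 and NUP43 above 66.9%. Levels were unequal within each arm, with NUP37 above NUP160 and NUP85 above NUP43 in every WT library.

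To find whether the outer ring responded to the loss of NUP58, the mean of the 6 clones was compared with WT on log2(FPKM + 1) in a single limma fit of the 32 HAP1 libraries, with p-values adjusted by the Benjamini-Hochberg method over 13180 genes. None of the 9 members was called at an adjusted p under 0.05, where 6.6% of all genes were called, and 2 reached an unadjusted p under 0.05. The largest differences were in the stem. NUP107 and SEC13 were lower, by less than the correction required, while NUP133, the stem subunit next to NUP107, was not. When the replicate number was added as a block, since same-numbered clone and WT libraries varied together in all 4 numbers, NUP107 and SEC13 were both called lower (2 of 9 members, where 12.6% of all genes were called and 7.06% were called lower). With EV in place of WT and no block, neither was called.

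NUP107 was at 66.2, 68.1, 60.9 and 62.5 FPKM in the WT libraries. In the 24 clone libraries it ran from 41.2 over a median of 52.8 to 67.5. Of these 24 libraries, 20 lay below every WT library, and the line means of the clones lay between 51.9 (C6) and 56.8 (C5), against 64.4 in WT and 61.5 in EV. The log2 fold change was -0.25 (standard error 0.0948, 95% interval -0.45 to -0.06, adjusted p = 0.111 from limma, 0.0308 with the block). The 36 tested genes within 5 Mb had a median log2 fold change of 0.04.

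SEC13 was at 103, 108, 110 and 108 in WT. It ran from 75.2 over a median of 93.6 to 117 in the clones, where 19 of 24 libraries lay below every WT library and 3 above. C6, at a mean of 103.2 ± 9.14 (SD, n = 4), was closest to WT. The log2 fold change was -0.19 (standard error 0.0842, 95% interval -0.37 to -0.02, adjusted p = 0.188 from limma, 0.0431 with the block).

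The remaining 7 members had log2 fold changes between -0.13 and 0.11. NUP37 was at -0.13 (95% interval -0.28 to 0.03), NUP85 at -0.04 (-0.27 to 0.20), NUP43 at 0.05 (-0.12 to 0.22), NUP133 at 0.05 (-0.13 to 0.24), SEH1L at 0.09 (-0.13 to 0.30), AHCTF1 at 0.09 (-0.15 to 0.34) and NUP160 at 0.11 (-0.23 to 0.45). The interval of NUP160 was the widest. The median over the 9 members was 0.05, beside -0.02 over all 13180 genes, and NUP58 itself fell by 1.48 on this scale (adjusted p = 9.59e-09 from limma). NUP98, whose transcript also encodes NUP96, was at 0.06 (adjusted p = 0.856 from limma).

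**Figure D1:**
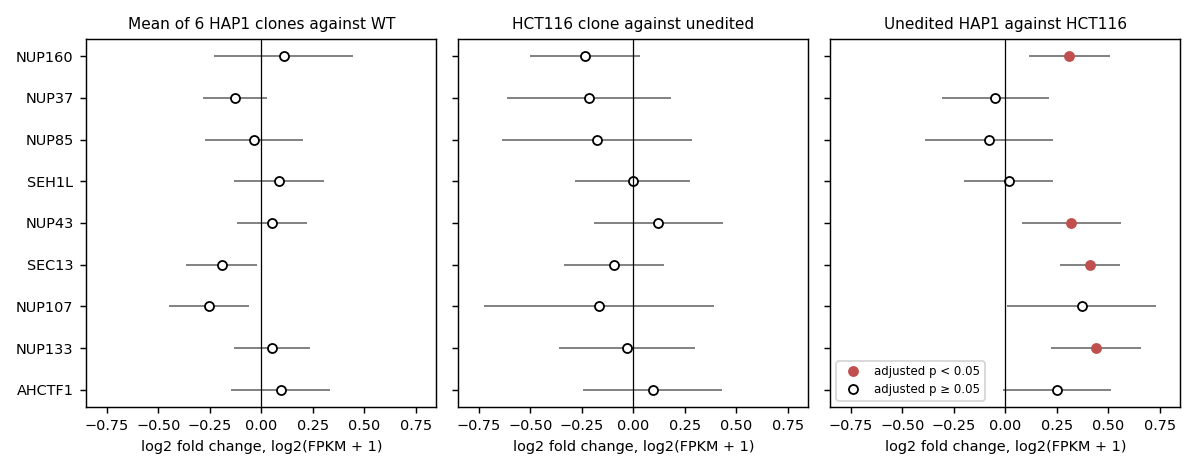
Log2 fold change on the log2(FPKM + 1) scale (points) with its 95% interval from limma (lines) for each gene in 3 comparisons; filled points have an adjusted p under 0.05. In the 2 comparisons of clones with unedited cells no point is filled, and in the comparison of the unedited lines 4 are, all higher in HAP1.

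Each clone was also compared with WT on its own, 4 libraries against 4, and 1 call was made in all. In C6, NUP107 fell to 54.2, 50.7, 52.6 and 50.004 FPKM, without overlap with WT. The difference was -0.31 on the log2 scale (standard error 0.0861, limma adjusted p = 0.0457). The exact permutation test, which is two-sided, gave p = 0.0286, the smallest that its 70 arrangements allow. This was 1 of 9 members, where 11.7% of all genes were called in C6. The call was lost when any of the 8 libraries was left out (adjusted p = 0.0531 to 0.137), with values rescaled to TPM, with EV in place of WT, without a mean-variance trend and in a fit of all 32 libraries. It was kept in 4 of 9 alternatives, among them median-ratio scaling and a test per gene that allowed unequal variances. NUP133, next to NUP107 in the stem, was at 40.7, 44.6, 39.6 and 36.2 FPKM in C6 against 31.1 to 36.2 in WT, a log2 fold change of 0.27 that was not called (adjusted p = 0.125 from limma).

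With limma no member was called in C1, where 0.479% of all genes were, nor in C2 (0.732%), C3 (0.0911%), C4 (0.16%) or C5 (7.55%). Unadjusted, p was under 0.05 for 2 members each in C1 and C3, for 1 in C5 and for 0 in C2 and C4. The test that allowed unequal variances made 0 calls among the members in these 5 clones. It also missed NUP58, the edited gene, in C1, C2, C3 and C4 (adjusted p = 0.118, 0.0618, 0.19 and 0.583). Its 0 calls therefore do not show that the members were unchanged, and the share of all genes it called was not counted. In limma, NUP58 was called in C1, C2 and C3 but not in C4 (adjusted p = 0.196). The groups did not overlap for NUP37 in C1 and C3, SEC13 in C1 and C5 and NUP107 in C1, all lower than WT, each with p = 0.0286 in the exact permutation test. All 4 libraries lay below all 4 of WT for 4.95% of all genes in C1, 1.81% in C3 and 8.02% in C5, and for 8.39% in C6, where NUP107 was the member that did so. In C2 (4.99% of all genes) and C4 (2.9%) no member did. EV, an unedited line, differed from WT by -0.17 to 0.16 over the 9 members, with no call (0.038% of all genes), none at an unadjusted p under 0.05 and none in the test that allowed unequal variances.

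NUP37, the subunit that binds NUP160, was the member that differed between the HAP1 lines. Its FPKM was 71.7, 78.1, 66.5 and 69.0 in WT and 63.4, 75.8, 64.4 and 61.5 in EV. In C1 it was 50.4, 43.9, 64.0 and 54.3, the lowest of the lines, and in C3 63.2, 54.8, 66.1 and 58.3. C5 was highest with 74.3, 76.2, 77.8 and 86.1, and no library of C5 overlapped with one of C1 or C3. The moderated F test over the 8 lines gave F = 6.33 and an adjusted p of 0.00191 from limma. This was 1 of 9 members, where 21.5% of all genes were called. The F test over the 6 clones alone gave an adjusted p of 0.00432. Its difference from WT was -0.43 in C1, with a standard error of 0.127 and a limma adjusted p of 0.199, and 0.14 in C5, with 0.0936 and 0.416. PARPBP, whose start lies 63 bases away, was at 0.18 in C1 and at 0.21 in C5 (adjusted p = 0.775 and 0.595 from limma), and the 46 genes within 5 Mb had a median of -0.02 in C1.

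In HCT116, the libraries labelled as the clone were compared with the 11 unedited libraries. No member was called with limma, where 0% of the 12960 genes were called, none was at an unadjusted p under 0.05 and none was called by the test that allowed unequal variances. NUP160 came closest: it was at 24.3, 23.1, 28.0 and 26.2 FPKM in the clone and ran from 23.4 over a median of 28.7 to 40.7 in the controls, which is -0.24 on the log2 scale with a standard error of 0.126 (limma adjusted p = 0.527). NUP107 was at 42.0, 33.6, 65.8 and 36.4 in the clone and from 23.7 over 55.4 to 70.6 in the controls, a log2 fold change of -0.17 with a 95% interval of -0.73 to 0.39. The high value belongs to the library labelled replicate 3. ASNS, described further on, was at -1.23 in this comparison (adjusted p = 0.353 from limma). With ASNS as a covariate 0 members were called, and whether it accounts for these values was not tested. Over the 11 alternatives of this comparison, among them that fit, NUP107 ran from -0.60 to -0.07. NUP37 ran from -0.53 to -0.12 and NUP85 from -0.45 to -0.09. The median over the members was -0.09, beside 0.004 over all genes, and without all libraries numbered 3 it was -0.22, with NUP37 at -0.38, NUP107 at -0.35 and NUP85 at -0.35 and again no call (adjusted p = 0.304, 0.507 and 0.409 from limma). The effect of the clones did not differ detectably between HAP1 and HCT116 for any member: 0 of 9 were called with limma and 0 were at an unadjusted p under 0.05, where 1.8% of all genes were called. Without the libraries numbered 3 the count was again 0. For the fits without these libraries, and for that with ASNS as a covariate, the share of all genes called was not counted.

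The unedited cells of the lines did differ. Of the 9 members, 4 were called, all higher in HAP1, where 68% of 13538 genes were called and 39.5% were called higher in HAP1. The share of members called higher was therefore near that of all genes, and no member was called lower. SEC13 was at 95.9 to 115 FPKM in the 8 unedited HAP1 libraries and at 64.8 to 90.1 in the 11 of HCT116, without overlap, as for 18.5% of all genes (log2 fold change 0.41, standard error 0.0709, adjusted p = 2.6e-05 from limma). NUP133 was at 0.44 (29.1 to 36.2 against 16.6 to 30.5, adjusted p = 0.000809), NUP43 at 0.32 (18.3 to 26.2 against 11.9 to 21.6, adjusted p = 0.0192) and NUP160 at 0.31 (29.97 to 42.9 against 23.4 to 40.7, adjusted p = 0.0065). NUP85, SEH1L and NUP37 were at -0.08, 0.02 and -0.05 (adjusted p = 0.644, 0.899 and 0.745). NUP107 and AHCTF1 were at 0.37 and 0.25 and missed the threshold (adjusted p = 0.0645 and 0.0827 from limma). Without the libraries numbered 3, 4 members were again called, and SEC13, NUP133, NUP43 and NUP160 were at 0.41, 0.43, 0.33 and 0.30. The median of all genes was itself shifted by 0.10, and when the libraries were scaled by median ratios, which took that shift to -0.001, only SEC13 and NUP133 were still called. For this scaling, and without the libraries numbered 3, the share of all genes called was not counted. In HCT116, SEC13 (79.4) no longer stood apart from NUP85 (76.9), and was the higher of the pair in 4 of the 11 unedited libraries.

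The members also varied from library to library within a line, and they did so together. The FPKM of all 9 summed to 472 ± 19.8 over the WT libraries (SD, n = 4) and to 471 ± 27.5 over those of EV (SD, n = 4), and the lowest sums in HAP1 were in replicate 2 of C1 (338), C4 (363), C2 (382) and C3 (387). In HCT116 it ran from 290 to 516, lowest in the libraries labelled EV1 replicate 1 and WT replicate 1. With each line's mean taken out, the 36 pairs of members had Pearson's r from 0.40 to 0.84 over the 47 libraries, with a median of 0.64. In the 32 HAP1 libraries alone the median was 0.50, and in the 15 of HCT116 it was 0.80 (0.79 over 12 without the libraries numbered 3, an alternative added after the data were seen). NUP107 was the member most like NUP37 (0.84), NUP85 (0.83) and NUP133 (0.79). SEH1L and NUP160 were most like each other (0.79), SEC13 and NUP43 were most like NUP85 (0.82 and 0.73), and AHCTF1 was most like NUP43 (0.67). For NUP37 and NUP107 the r was 0.46 in HAP1 and 0.98 in HCT116 (0.97 without the libraries numbered 3), so that the pooled value mostly describes HCT116. These correlations are descriptions, since the libraries of a line share their cells and a shift of a whole library moves all genes.

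Of the 13620 other genes, the 5 most like the mean of the members across the 47 libraries were NUP188 (r = 0.95), CSE1L (0.94), CCT4 (0.94), ERCC6L (0.94) and HSP90AB1 (0.94). Across all genes the median r was -0.07, and 18.6% were above 0.5. The median was 0.74 over 22 other pore genes, 0.75 over 9 kinetochore and chromosomal passenger genes, 0.77 over 11 proliferation genes, 0.37 over 12 COPII genes and 0.07 over 6 GATOR genes. The 11 proliferation genes summed to between 941 and 1440 FPKM per HAP1 library and to between 515 and 1347 per HCT116 library, and its part in the joint variation was not tested.

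ASNS, which makes asparagine and rises when amino acids are scarce, was picked for this comparison with earlier results of these data known, so its relation to the members is a description with no test. It ran from 32.5 to 451 FPKM in HAP1, and was highest in replicate 2 of C1 (451), C4 (434) and C2 (428), which hold the 3 lowest sums of the members. With line means taken out, log2 ASNS and the log2 sum of the members had Pearson's r = -0.89 and Spearman's rho = -0.82 over 32 libraries. Without the 2 libraries farthest in ASNS, r was -0.84. Libraries of the same number were alike, with ASNS at 143 to 451 in those numbered 2 and at 32.5 to 64.0 in those numbered 3. Within numbers 1, 2, 3 and 4 r was -0.80, -0.88, -0.52 and -0.92 (8 libraries each). Of 13629 single genes, 0.873% had an r with ASNS as low as this sum, and 21.1% were below -0.5. A sum of 9 genes is not the same measure as a single gene, and no member alone was as low. Among members it was lowest for SEC13 and NUP85 (-0.83 each) and weakest for NUP37 (-0.33). In HCT116, r was -0.55 and rho -0.60 over 15 libraries. Over the 12 left without those numbered 3, r was -0.90, so that the value there depends on these 3 libraries. Of these, the library labelled EV1 replicate 3 had the highest ASNS in HCT116 (350 FPKM). Within numbers 1, 2, 3 and 4 of HCT116 r was -0.21, -0.79, 0.31 and 0.08, over 3 or 4 libraries each. For single members there, r ran from -0.66 (SEC13) to 0.04 (NUP160). ASNS was not called between the clones and WT (log2 fold change -0.08, 95% interval -1.34 to 1.18, adjusted p = 0.961 from limma). With it as a covariate NUP107 and SEC13 were called lower in the mean of the clones, 2 of 9 members, where 14.7% of all genes were called and 8.13% were called lower, and the F test over the lines called 4 of 9 (NUP37, SEC13, NUP133 and NUP43), where it called 37.4% of all genes.

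Other parts of the pore and the partners of the members were read from lists in the same fit of the clone mean. In that fit 6.6% of all genes were called. With the replicate block 12.6% were called, and 7.06% were called lower. These shares are the background for each count that follows. Of 22 other pore genes, 2 were called, both lower. NUP210, a membrane nucleoporin, was at -0.54 (standard error 0.137, adjusted p = 0.0145 from limma), and GLE1, an mRNA export factor of the cytoplasmic filaments, was at -0.25 (0.0637, adjusted p = 0.0131). The median of that list was -0.10, and 17 of its genes were below 0. With the replicate block 6 of the 22 were called, 5 lower (NUP188, NUP93 and NUP153 in addition) and NUP35 higher. None of 12 COPII genes was called, with SEC31B at -0.53 and SEC24D at -0.29 the largest (adjusted p = 0.0723 and 0.351 from limma), but with the block SEC31B and SEC23B were called lower (adjusted p = 0.00519 and 0.0168). None of 6 GATOR genes was called in either fit, with DEPDC5 at -0.25 and WDR24 at -0.11 (adjusted p = 0.549 and 0.55 from limma without the block). Of 9 kinetochore and chromosomal passenger genes, SPC24 of the NDC80 complex was called lower at -0.42 (0.107, adjusted p = 0.0152). Of the 11 proliferation genes, CDK1, the kinase that drives entry into mitosis, was called lower at -0.31 (0.0727, adjusted p = 0.00876). Among the markers of colon epithelium 4 were tested, and the keratins KRT8 (-1.29) and KRT18 (-0.67) were called lower (adjusted p = 7.93e-06 and 3.63e-05 from limma), with CDX2 called higher only with the block (0.46, adjusted p = 0.0573 without and 0.0268 with it). Neither of the 2 blood cell markers tested was called.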

How the data were processed

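The authors aligned reads to GRCh38 with STAR and quantified genes with RSEM, per the labels and their methods, and deposited FPKM values without further normalization between libraries. All 47 columns were matched to samples by the labels, and no pair of columns was identical. Each comparison kept the genes whose FPKM averaged 1 or more in its own libraries. They were fitted on log2(FPKM + 1) in R 4.3.3 by limma 3.58.1, with lmFit and the trended form of eBayes, with Benjamini-Hochberg adjustment over all genes fitted and a call at an adjusted p under 0.05. The scripts were tested on simulated data. Single members were also compared by exact permutation tests in R. Correlations were computed in Python 3.11.15 (numpy 2.4.6, scipy 1.17.1).

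The members and gene lists were chosen with earlier results of these data known, as was the use of ASNS. The text names all members, list genes called in the clone mean (otherwise the 2 with the largest change), NUP58, and the genes most like the members. Deviations of same-numbered clone (mean) and WT libraries from their line means correlated over genes with r from 0.360 to 0.720 in all 4 pairs, so the numbers were taken as pairs there. This r exceeded 0.1 in all 4 pairs for EV and C1–C4, in 2 of 4 for C5 and C6 and in 1 of 4 in HCT116. On the log2(FPKM + 1) scale the change of low genes is understated. NUP42 stood in the table under its older symbol NUPL2. For HCT116, fits with and without the libraries numbered 3 were made.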

Additional observations from a re-analysis of the deposited data

Results flagged for a closer look

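Among 90 combinations of a member and a group of 4 libraries, 7 held a library whose gap to the nearest other was over the 95% critical value of Dixon's test, and chance gives about 1 in 20. In HAP1 C1, replicate 2 was lowest for SEC13 (78.5 FPKM, the others 95.4 to 98.0) and NUP133 (22.5, the others 32.8 to 34.4). This library also had the lowest sum of the members in HAP1 and the highest ASNS. In C5, replicate 2 was lowest for NUP133 (28.5, the others 35.9 to 37.0), and in C3, replicate 3 was highest for SEC13 (106.9, the others 86.3 to 89.0). In EV, replicate 3 was highest for NUP43 (25.3, the others 18.3 to 19.2). In HCT116, the library labelled clone replicate 3 was highest for NUP85 (96.8, the others 54.8 to 60.1), and EV2 replicate 2 was highest for SEH1L (51.5, the others 41.6 to 43.0). NUP37 differed between the 6 clones in a test of that difference (adjusted p = 0.00432 from limma's F test). What sets these libraries and clones apart was not tested.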

How the results depend on the processing

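Of 318 counts of called members under alternatives, 297 were within 1.5 times the reported count, and no direction of a called value turned. In the mean of the clones (0 called), 2 members were called with the replicate block or with ASNS as a covariate (NUP107 and SEC13) and 1 with WT and EV together (NUP107). With EV in place of WT neither NUP107 nor SEC13 was called. Their log2 fold changes there, -0.19 and -0.14, were the smallest of the 15 alternatives. In C1, a fit of all 32 HAP1 libraries called 1 (NUP37). In C6 (1 called), 0 were called with the replicate block (NUP107 adjusted p = 0.102 from limma), with scaling to TPM, without the trend, in a fit of all libraries or at an unadjusted p under 0.01 with a fold change over 2, and 2 were called against EV (NUP133 and NUP43 in place of NUP107). Leaving out each library gave 0 to 0 there. Between unedited HAP1 and HCT116 (4 called), median-ratio scaling gave 2, the threshold on p and fold 0, and TPM scaling 6, and leaving out each library gave 4 to 6. The share of all genes called was not counted for these settings. The same holds for WT and EV together, EV in place of WT, and single clones fitted with all 32 HAP1 libraries. With ASNS as a covariate the F test over the HAP1 lines called 4 members in place of 1 (NUP37, NUP43, SEC13 and NUP133), where it called 37.4% of all genes in place of 21.5%. Leaving out each library gave 0 throughout in the mean of the clones and kept NUP37 called over the lines (adjusted p = 0.000368 to 0.00754 from limma). In C6, C5 and HCT116 same-numbered libraries did not vary together in every pair, so the block there rests on the number alone. It changed no other count. In HCT116 the 95% interval of NUP107 spans -0.73 to 0.39, so a change of the size seen in HAP1 could not be told from none.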
